A study of Mus musculus with 16 samples.

Results

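The nuclear-encoded subunits of the mitochondrial respiratory chain were described in quadriceps muscle, as the genes of the count table whose symbols follow the subunit naming patterns for complexes I to V (*Nduf*, *Sdh*, *Uqcr*, *Cox4* to *Cox8* and *Atp5*), carry no pseudogene suffix and had at least 10 counts in each of the 16 libraries. This gave 82 of 41388 genes, of which 37 belong by name to complex I, 4 to complex II, 8 to complex III, 16 to complex IV and 17 to complex V. In all 87 symbols matched. The 3 pseudogene symbols, *Atp5l-ps1*, *Atp5l-ps2* and *Atp5l2-ps*, were left out, and *Cox8c* and *Cox7b2* had 0 counts in every library. The choice used counts as a minimum only and no difference between groups. All 82 genes passed the filter on low counts in every comparison.

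The respiratory chain moves electrons from NADH (complex I) and succinate (complex II) through complex III to oxygen at complex IV, and the proton gradient built on the way drives ATP synthesis at complex V. Its subunits come from the nuclear and the mitochondrial genome, apart from complex II, which is encoded in the nucleus alone. Fast glycolytic fibers hold fewer mitochondria than slow and oxidative fibers, and several complex IV subunits exist as a muscle form and a form used in most other tissues. Names and membership are not fully aligned. *Ndufa4* carries a complex I name but encodes a subunit now placed in complex IV, *Cox7a2l* encodes a supercomplex factor, and *Atp5s* and *Atp5sl* (*Dmac2* in a newer annotation) are not subunits of the mature enzyme. Each gene was kept in the complex of its name.

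RNA from quadriceps of 16 C57BL/6 mice collected on postnatal day 36 was sequenced, with 4 libraries in each of 4 groups. WT and *Mtm1* KO (mtm1 -/-) mice received no tamoxifen, while WT + TAM and *Mtm1* KO + TAM mice ate a diet with 40 mg/kg tamoxifen from day 21. *Mtm1* encodes myotubularin, a phosphoinositide phosphatase that is lost in X-linked myotubular myopathy. The KO is a deletion of exon 4 in every tissue, so muscle fibers and all other cells of the sample carry it, and *Mtm1* transcripts from the other exons still give counts. In bulk RNA, fewer cells of a type and less RNA per cell cannot be told apart. The paper states that the samples came from littermates, but neither it nor the labels say which mice shared a litter. Litter therefore entered no fit, and p-values measure the spread between these libraries.

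The 14 libraries that the study analysed (WT replicates 2 to 4, WT + TAM 5 to 8, *Mtm1* KO 9 to 11 and *Mtm1* KO + TAM 13 to 16) held 25702605 to 29847222 counts and were the main set. Those labelled WT replicate 1 and KO replicate 12 were added as an alternative. *Mtm1* had 282 to 459 counts in the other WT and WT + TAM libraries and 53 to 97 in the libraries of both KO groups, and the library labelled WT replicate 1 had 74, which goes against its label. WT + TAM replicates 7 and 8 were the most alike of 120 pairs of libraries, with a chi-square of 12.4 per gene against 30.1 for the next pair, more than the value of 1 that sampling alone gives, and were kept as 2 samples. Whether they come from 1 mouse is not given in the labels, and if they do, each n = 4 for WT + TAM is 3. With either left out, no call on a subunit gene or an isoform share changed. TMM factors, which rescale each library so that most genes do not change, were 0.843 to 0.942 in WT, 0.884 to 0.914 in WT + TAM, 1.1 to 1.16 in *Mtm1* KO and 1.02 to 1.18 in *Mtm1* KO + TAM. A scaling to library size alone therefore moved the genes of *Mtm1* KO up against WT, by 0.31 on the log2 scale for the median subunit gene. Levels below are RPKM (counts scaled by gene length and by the total count of the library) divided by the TMM factor, fold changes are on the TMM scale, and sums over marker genes of other cells are in RPKM as deposited.

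Upstream sequence is shown for genes on which the results on isoforms turn, beside *Cox6a1*, whose upstream bases hold the letters of 2 regulators of respiratory genes. RefSeq (GRCm38.p6) gave a promoter window, from 250 bases before to 50 after the start, for 68 of the 82 genes and for 27025 genes in all. The 200 bases before the start are printed 5′ to 3′ in the direction of the gene, with the letters of a searched motif in capitals.
Cox7a1 (chr7:30183971-30184170, plus strand): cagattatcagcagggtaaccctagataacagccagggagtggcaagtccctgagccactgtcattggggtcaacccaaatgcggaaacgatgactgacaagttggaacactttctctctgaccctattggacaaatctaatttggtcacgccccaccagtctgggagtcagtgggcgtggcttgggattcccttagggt
Cox7a2 (chr9:79759854-79760053, minus strand): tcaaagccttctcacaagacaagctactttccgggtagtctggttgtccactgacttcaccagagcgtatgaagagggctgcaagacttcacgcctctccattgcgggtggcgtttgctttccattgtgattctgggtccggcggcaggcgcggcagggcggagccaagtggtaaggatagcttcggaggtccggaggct
Atp5g1 (chr11:96075632-96075831, minus strand): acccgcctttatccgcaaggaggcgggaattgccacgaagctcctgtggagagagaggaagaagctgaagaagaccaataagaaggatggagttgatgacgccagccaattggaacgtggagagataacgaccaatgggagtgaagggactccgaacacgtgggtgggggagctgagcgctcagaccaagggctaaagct
Atp5g2 (chr15:102671048-102671247, minus strand): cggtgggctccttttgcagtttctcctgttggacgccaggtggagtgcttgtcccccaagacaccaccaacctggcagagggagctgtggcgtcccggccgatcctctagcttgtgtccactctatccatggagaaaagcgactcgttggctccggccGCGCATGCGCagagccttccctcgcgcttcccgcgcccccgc
Atp5g3 (chr2:73911327-73911526, minus strand): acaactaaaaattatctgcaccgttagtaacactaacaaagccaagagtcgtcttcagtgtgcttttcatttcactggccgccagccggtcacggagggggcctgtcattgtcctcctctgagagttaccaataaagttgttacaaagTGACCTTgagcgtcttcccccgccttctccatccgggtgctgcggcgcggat
Cox6a1 (chr5:115348959-115349158, minus strand): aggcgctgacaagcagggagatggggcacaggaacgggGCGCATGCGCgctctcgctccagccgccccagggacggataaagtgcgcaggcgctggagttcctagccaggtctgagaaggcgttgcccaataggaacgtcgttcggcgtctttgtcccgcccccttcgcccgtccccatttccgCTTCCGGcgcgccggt
The letters searched on both strands were GCATGCGC for NRF1, CCGGAAG for ETS factors such as GABPA, AAGGTCA for the core site of estrogen-related receptors, AAGATGGC for YY1 and CAGCTG for the muscle E-box. These letter strings do not contain one another, and the NRF1 string can overlap its own reverse strand, as it does in *Atp5g2* and *Cox6a1*. The capitals mark NRF1 letters in *Atp5g2* and *Cox6a1*, an ETS match close to the start of *Cox6a1* and an estrogen-related receptor match in *Atp5g3*, while the windows of *Cox7a1*, *Cox7a2* and *Atp5g1* printed here hold no match.

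Over the windows of 300 bases, NRF1 letters were present in 10 of 68 subunit genes (14.7%) and in 3.05% of all genes. ETS letters stood in 16 (23.5%) against 9.93% of all genes, YY1 letters in 11 (16.2%) against 3.19%, and the receptor letters in 8 (11.8%) against 5.38%. The muscle E-box letters were the exception, with 6 subunit genes (8.82%) against 18.3% of all genes. Among the 6, *Cox8b* encodes a muscle form of its subunit. These shares describe letters and not bound sites, and no test was made.

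The 82 genes together took 2.39 to 3.33% of the counts in WT, 2.47 to 3.25% in WT + TAM, 3.0 to 3.62% in *Mtm1* KO and 3.15 to 4.03% in *Mtm1* KO + TAM. After TMM scaling the WT libraries summed to 32493 ± 4021 CPM (SD, n = 3) and the WT + TAM libraries to 32892 ± 4139 (SD, n = 4). The sum was 29514 ± 2030 (SD, n = 3) for *Mtm1* KO, while *Mtm1* KO + TAM reached 31486 ± 5606 (SD, n = 4). The 4 groups overlapped. Per length, the highest mean TMM-scaled RPKM over the 14 libraries belonged to *Ndufa4* (1009), followed by the complex IV subunits *Cox5a* (958), *Cox6b1* (949), *Cox8b* (938), *Cox6a2* (909.7) and *Cox7a1* (749.9). The lowest were *Cox6b2* (0.783) and *Cox4i2* (3.94), the testis and lung forms of their subunits, followed by *Atp5s* (7.09).

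**Figure D1:**
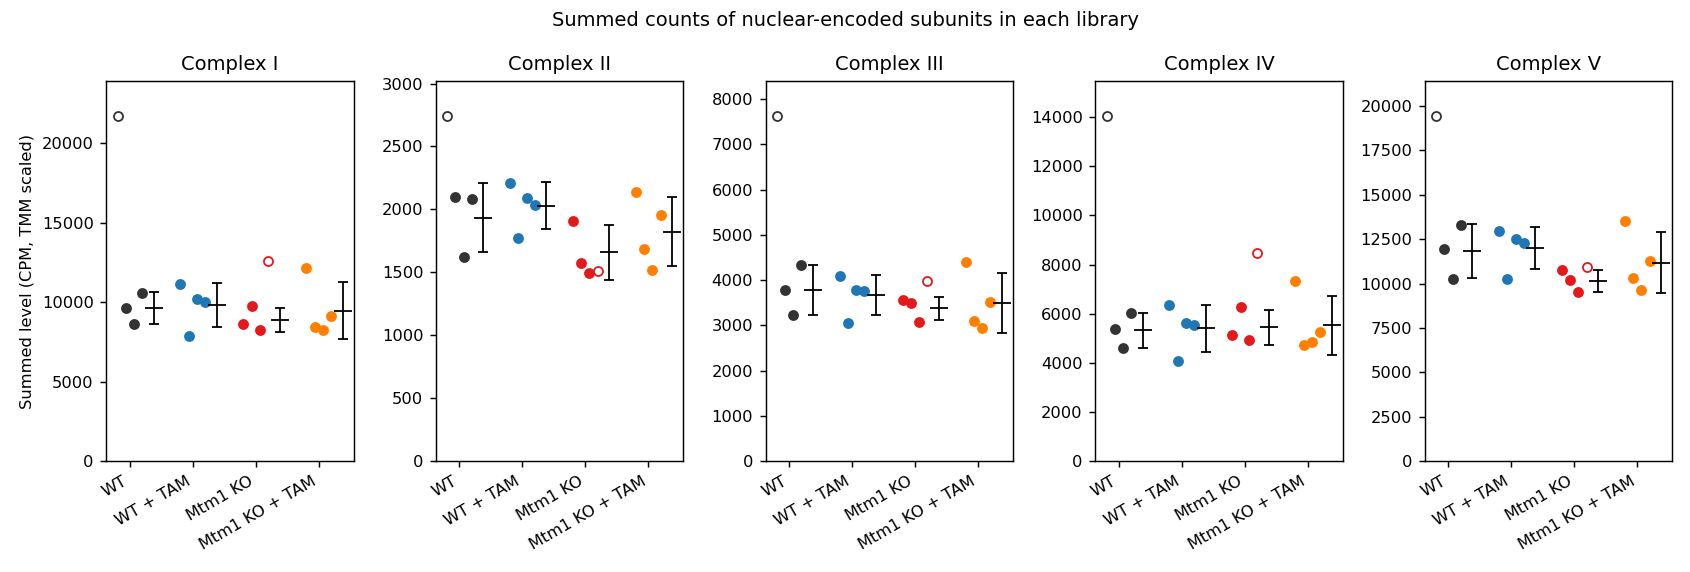
Summed TMM-scaled CPM (vertical axes, in CPM, each from 0) of the subunit genes of complexes I to V in each library, with filled points for the 14 libraries of the main set, open points for WT replicate 1 and KO replicate 12 as labelled, and bars for the mean and SD of the filled points. The filled points of the 4 groups overlap in every complex, and the open WT point lies above all others.

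Complex by complex, the same overlap was seen. Complex I summed to 9624 ± 996 CPM (SD, n = 3) in WT and 8883 ± 765 (SD, n = 3) in *Mtm1* KO. Complex II, the only complex with no mitochondrial subunit, gave 1935 ± 271 (SD, n = 3) and 1659 ± 218 (SD, n = 3). Complex III gave 3776 ± 549 (SD, n = 3) and 3373 ± 257 (SD, n = 3), complex IV 5333 ± 713 (SD, n = 3) and 5438 ± 718 (SD, n = 3), and complex V 11825 ± 1527 (SD, n = 3) and 10161 ± 625 (SD, n = 3). In the library labelled WT replicate 1 the sum over all 82 genes was 65648 CPM, the other WT libraries lay between 28296 and 36313, and KO replicate 12 had 37536. Within WT + TAM, replicate 6 had the lowest sum (27031 CPM), and within WT, replicate 3 (28296 CPM). These were also the libraries with the least of the slow and oxidative fiber markers, whose RPKM summed to 18.6 in WT replicate 3 and 63.6 in WT + TAM replicate 6, against 231 to 504 in the other libraries of both groups in the main set. The part of fiber type in the sums was not tested.

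The first question was whether loss of *Mtm1* changed these genes. Between *Mtm1* KO and WT, 41 of the 82 lay above 0 and 41 below on the log2 scale, and the median log2 fold change was -0.00 (0.02 over all 14740 genes tested). No subunit gene was called (edgeR, quasi-likelihood, Benjamini-Hochberg adjusted p at most 0.01 over all genes tested), where 3.60% of all genes were called. DESeq2 called 3 (*Ndufa6*, *Ndufs1* and *Ndufc1*, all lower), where it called 11.4% of all genes. On log2 RPKM with 0.1 or 1 added, limma called none, where it called 5.59% or 5.13% of all genes. At an unadjusted p under 0.05 there were 12 of 82 (14.6%), 5 higher and 7 lower, against 30.1% of all genes, and for 18 of 82, 7 higher and 11 lower, the normalised counts of the 3 KO and the 3 WT libraries did not overlap, against 36.2% of all genes. The 95% interval of the fold change lay within 2-fold up or down for 76 of 82 and within 1.5-fold for 51. By complex the medians were -0.01 for I, -0.12 for II, -0.02 for III, 0.07 for IV and -0.05 for V. With 1 library left out the median of all 82 ran from -0.09 to 0.08, and those of the complexes ran from -0.10 (without KO replicate 10) to 0.05 for I, and from -0.23 to -0.02 for II, -0.12 to 0.10 for III, -0.02 to 0.18 for IV and -0.13 to 0.06 for V. The lower ends for II to V came without WT replicate 3 and all the upper ends without WT replicate 4, so the sign of the median was set by single libraries in every complex but II.

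**Figure D2:**
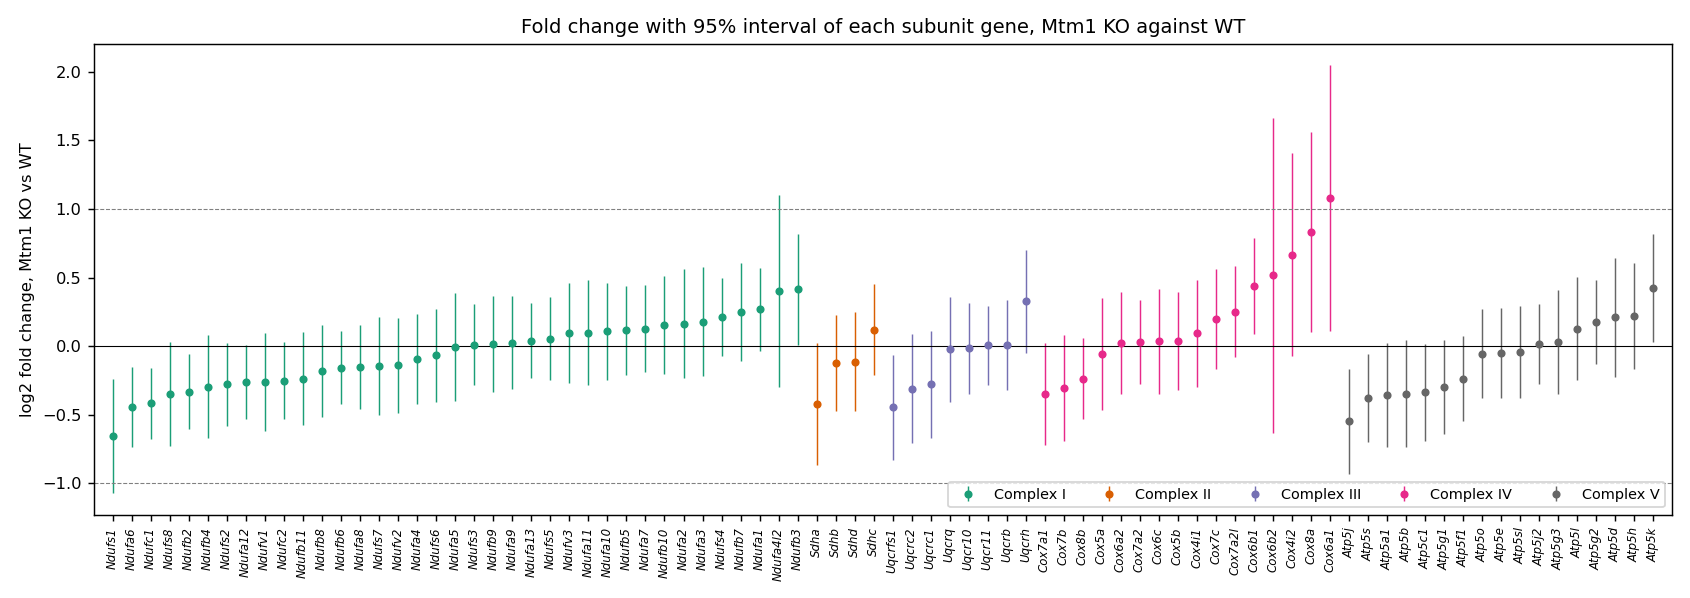
Log2 fold change of *Mtm1* KO against WT (vertical axis) with its 95% interval for each of the 82 genes (horizontal axis), coloured by complex and sorted within it, with dashed lines at 2-fold. The intervals of 76 genes lie between the dashed lines, and the widest belong to *Cox6a1*, *Cox6b2*, *Cox8a*, *Cox4i2* and *Ndufa4l2*.

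By role, the medians of the core groups of complexes I and III, the F1 head and the catalytic subunits of complex II were below 0, and no difference between roles was tested. All 3 core subunits of complex III, *Uqcrc1*, *Uqcrc2* and the Rieske protein *Uqcrfs1*, were lower in *Mtm1* KO (median log2 fold change -0.31), as were 6 of the 7 core subunits of complex I (median -0.26), 4 of the 5 subunits of the F1 head of complex V (median -0.34) and both catalytic subunits of complex II. The median was 0.03 for the 28 accessory subunits of complex I and 0.01 for the 5 of complex III, and -0.15 for the 4 peripheral stalk subunits of complex V, of which 3 were lower. All 3 membrane accessory subunits of complex V, *Atp5j2*, *Atp5k* and *Atp5l*, were higher (median 0.13), and the 3 c-ring genes had a median of 0.03. Accessory genes were also among the lowest single values. *Ndufs1*, the largest iron-sulfur subunit of complex I, had 67.8, 56.6 and 70.2 RPKM in WT and 51.2, 33.0 and 37.1 in *Mtm1* KO, with no overlap. Its log2 fold change was -0.66 ± 0.18 (SE), and its adjusted p was 0.0479 (edgeR), short of the threshold of 0.01. The gene lies on the minus strand at chr1:63143596-63176833 (GRCm38). *Ndufc1*, an accessory subunit, had 134, 136 and 144 RPKM in WT and 101, 106 and 98.1 in *Mtm1* KO, a log2 fold change of -0.42 ± 0.11 (SE) and an adjusted p of 0.0439 (edgeR). *Ndufa6*, an accessory subunit of the LYR family, had 358, 353 and 423 RPKM in WT and 290, 275 and 255 in *Mtm1* KO (log2 fold change -0.44 ± 0.13, SE). These groups did not overlap either, and the adjusted p was 0.0544 (edgeR). *Atp5j*, of the peripheral stalk of ATP synthase, was at -0.55 ± 0.17 (SE), with an adjusted p of 0.0644 (edgeR). Of its stretches of 50 bases 8.89% occur in another gene, most often *Gabpa*. *Uqcrfs1* was the lowest of complex III at -0.45 ± 0.17 (SE). At the upper end stood *Cox6b1*, a complex IV subunit with 839, 719 and 897 RPKM in WT and 1030, 1270 and 973 in *Mtm1* KO. These groups did not overlap (log2 fold change 0.44 ± 0.16, SE, adjusted p = 0.0929 in edgeR). *Atp5k*, subunit e of ATP synthase, was at 0.42 ± 0.17 (SE), *Ndufb3* at 0.41 ± 0.18 (SE) and *Uqcrh*, the hinge protein of complex III, at 0.33 ± 0.17 (SE), each the highest of its complex. Without KO replicate 10 *Ndufb3* was at 0.22 and *Uqcrh* at 0.18.

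Gene length moved with these differences. Across the 82 genes, log2 fold change and log2 length had a Pearson r of -0.36 and a Spearman rho of -0.29, as a description over genes that share the same 6 libraries, and over 12273 genes the Spearman rho was -0.15. The 41 shorter genes had a median of 0.02 and the 41 longer ones -0.12. The level of longer against shorter genes differed between the libraries themselves, with slopes of log2 level on log2 length of 0.0134 to 0.0378 in WT and -0.0476 to 0.00757 in *Mtm1* KO. With an offset that removed this trend from each library, chosen after seeing the data, the median of the 82 genes was -0.16 and no gene was called.

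Of the 4 complex II subunits, *Sdha*, the flavoprotein that oxidises succinate, had 251, 179 and 215 RPKM in WT and 199, 130 and 143 in *Mtm1* KO. The groups overlapped, and the log2 fold change was -0.42 ± 0.20 (SE), with an adjusted p of 0.185 (edgeR). The iron-sulfur subunit *Sdhb* and the membrane anchors *Sdhc* and *Sdhd* were at -0.12 ± 0.16, 0.12 ± 0.15 and -0.12 ± 0.16 (SE). In the treated mice *Sdha* had 256, 219, 240 and 226 RPKM in WT + TAM and 190, 168, 150 and 217 in *Mtm1* KO + TAM, which do not overlap (log2 fold change -0.37 ± 0.13, SE, adjusted p = 0.0779 in edgeR).

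The highest log2 fold changes in *Mtm1* KO against WT were those of 2 non-muscle forms of complex IV subunits. *Cox6a1* had 95.7, 33.5 and 45.3 RPKM in WT replicates 2 to 4 and 133, 167 and 61.3 in *Mtm1* KO replicates 9 to 11, and *Cox8a* had 138, 57.8 and 90.9 against 197, 198 and 107. Both overlapped. *Cox6a1* had a fold change of 2.11 (log2 fold change 1.08 ± 0.43, SE, adjusted p = 0.131 in edgeR), with a 95% interval on the log2 scale from 0.11 to 2.05, and *Cox8a* was at 0.83 ± 0.32 (SE, adjusted p = 0.121 in edgeR). Without KO replicate 10 the log2 fold change of *Cox6a1* was 0.77 and without WT replicate 2 it was 1.64. Fat cell markers followed these genes in some libraries only. Within *Mtm1* KO, replicate 10 had the highest *Cox6a1* (167 RPKM) and the lowest sum of fat cell markers (548 RPKM). Of 5 fat cell markers 0 were called and 4 were higher, and their RPKM summed to 65.0 to 899.7 in WT, 302.6 to 1349 in WT + TAM, 548 to 912 in *Mtm1* KO and 531 to 668 in *Mtm1* KO + TAM. The 3 brown fat markers summed to 0.218 to 45.9, 4.43 to 78.2, 5.00 to 142 and 4.32 to 78.7, with *Ucp1* at 0 in WT replicate 3, the library with the lowest *Cox6a1* and *Cox8a*, and at 76.1 and 56.9 RPKM as deposited in *Mtm1* KO replicates 9 and 10. As deposited, the marker sums of other cell types moved with genotype too. Leukocyte markers summed to 48.2 to 58.2 RPKM in WT, 23.2 to 63.3 in WT + TAM, 88.6 to 110.2 in *Mtm1* KO and 77.3 to 152 in *Mtm1* KO + TAM, with no overlap between genotypes, and 4 of the 4 tested were higher in *Mtm1* KO with none called. Fibroblast markers summed to 700.3 to 747 in WT, 427 to 637 in WT + TAM, 784 to 1115 in *Mtm1* KO and 749.7 to 823 in *Mtm1* KO + TAM, again without overlap between genotypes. Divided by the TMM factor, which is higher in the KO groups, the fibroblast sums of the genotypes overlapped in both treatments. The 4 genes had a median log2 fold change of 0.09 in *Mtm1* KO against WT, with 2 of the 4 higher and none called. The part of fat, leukocytes and fibroblasts in these values was not tested.

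The share that one form takes of its set does not depend on how libraries are scaled, so 9 such shares of RPKM were compared between genotypes within treatment and between treatments within genotype, over the 14 libraries, with two-sided exact permutation tests adjusted over all 18. These tests were added after the data had been seen, and their threshold was an adjusted p of 0.05. Of the 6 differences that passed, 4 did so in every repeat of the test with 1 library left out and the rest did not. Among these 4, those of *Atp5g1* and *Atp5g3* are shares of the same set and are tied to each other.

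**Figure D3:**
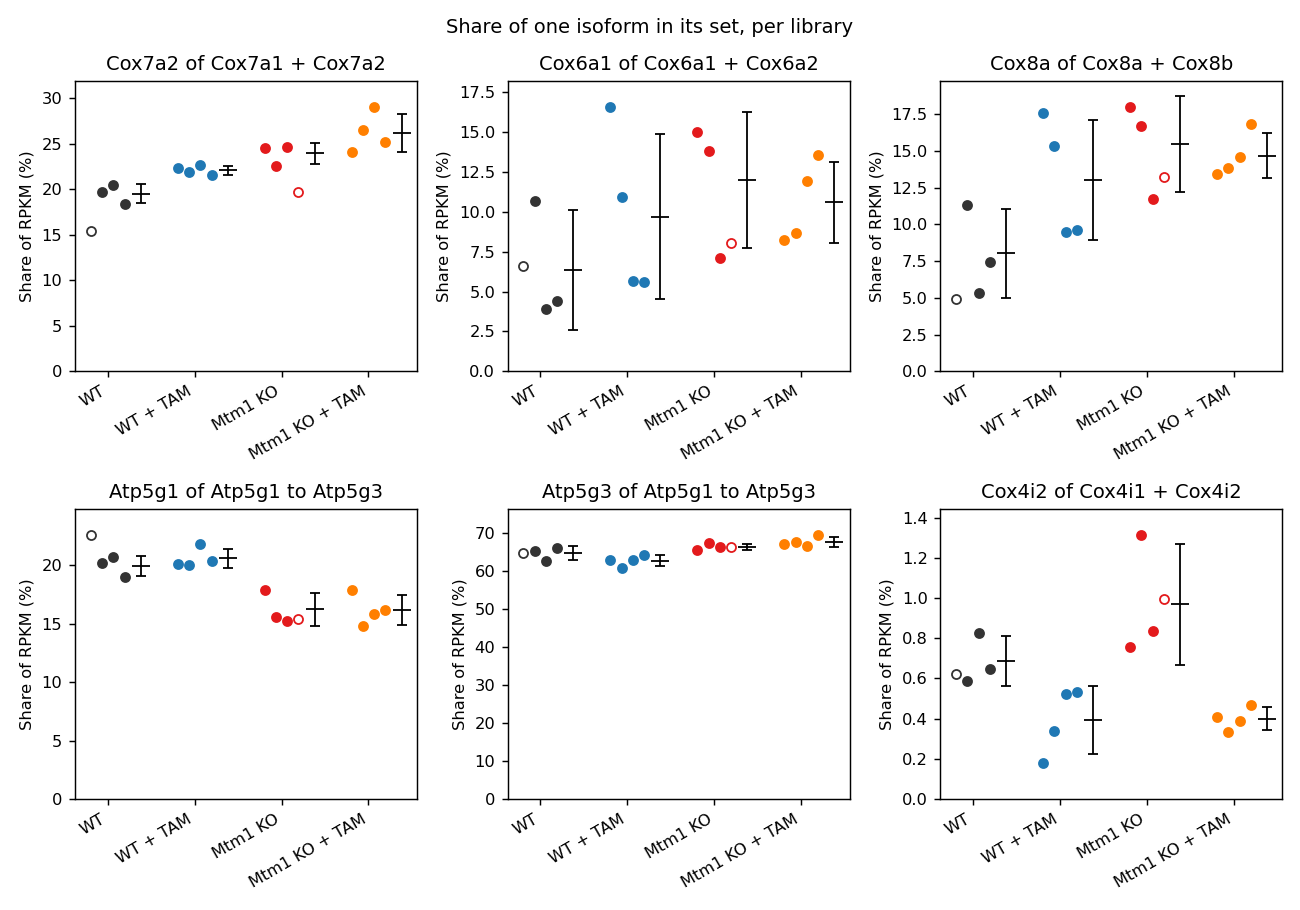
Share of 1 form in the summed RPKM of its set (vertical axes, in percent, each from 0) in each library, with filled points for the 14 libraries, open points for WT replicate 1 and KO replicate 12 as labelled, and bars for the mean and SD of the filled points. Among the filled points, *Cox7a2* takes more and *Atp5g1* less of its set in the *Mtm1* KO groups than in the WT group with the same treatment. Among them *Cox4i2* takes less with tamoxifen, *Cox6a1* overlaps between genotypes, and *Cox8a* overlaps between genotypes in the treated groups only.

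*Cox7a2*, the form of subunit VIIa used in most tissues, took 19.7, 20.4 and 18.4% of *Cox7a1* + *Cox7a2* in WT and 24.6, 22.6 and 24.6% in *Mtm1* KO. With tamoxifen it took 22.3, 21.8, 22.7 and 21.6% in WT and 24.1, 26.5, 29.0 and 25.2% in *Mtm1* KO. Within the 14 libraries every *Mtm1* KO library was above every WT library of the same treatment. Outside them, KO replicate 12 took 19.7%, within the range of these WT libraries, and the library labelled WT replicate 1 took 15.4%. The mean difference was 4.24 percentage points (exact permutation test, p = 0.00143, adjusted p = 0.00857). The leukocyte marker sums given above also separated the genotypes in both treatments, as did the fibroblast sums as deposited but not after TMM scaling. The part of these cells in this share was not tested. The muscle form *Cox7a1* itself had 896, 764 and 1095 RPKM in WT and 736, 773 and 618 in *Mtm1* KO, a log2 fold change of -0.35 ± 0.16 (SE, adjusted p = 0.190 in edgeR), and *Cox7a2* was at 0.03 ± 0.14 (SE). Tamoxifen went with a share higher by 2.41 points (exact permutation test, p = 0.00490, adjusted p = 0.0176), which was no longer past 0.05 without KO replicate 10 (2.07 points, exact permutation test, adjusted p = 0.0754). *Cox7a2* is the longer gene of the pair, 754 against 364 bases in the length behind the RPKM, and neither shares a stretch of 50 bases with another gene.

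The c-ring of ATP synthase is made of 1 protein encoded by 3 genes that differ in their targeting sequence. *Atp5g1* took 20.2, 20.7 and 19.0% of the 3 in WT and 17.8, 15.5 and 15.3% in *Mtm1* KO, and 20.1, 20.1, 21.8 and 20.4% in WT + TAM against 17.8, 14.8, 15.9 and 16.2% in *Mtm1* KO + TAM. No *Mtm1* KO library reached the WT range, and the mean difference was -4.07 points (exact permutation test, p = 0.00143, adjusted p = 0.00857). *Atp5g3* had a share that was higher by 3.36 points (exact permutation test, p = 0.00286, adjusted p = 0.0129). The shares of the 3 genes add up to the whole, so this gain and the lower *Atp5g1* share are not separate results. Untreated, it took 64.8 ± 1.80% (SD, n = 3) in WT and 66.5 ± 0.83% (SD, n = 3) in *Mtm1* KO, which overlap and differ by 1.75 points, and with tamoxifen the difference was 4.97 points. Tamoxifen moved the *Atp5g1* share by 0.29 points (exact permutation test, adjusted p = 0.735). *Atp5g1* is the longest of the 3 (4912 bases, against 1675 and 2181), so its lower share points the same way as the trend with length, whose part was not tested. It shares 11.1% of its stretches of 50 bases with other genes, *Atp5g2* 38.3% and *Atp5g3* none.

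*Cox4i2*, the form of subunit IV known from lung, is a minor gene in this muscle. Its counts were 81 to 90 in WT, 29 to 69 in WT + TAM, 108 to 250 in *Mtm1* KO and 51 to 91 in *Mtm1* KO + TAM, and it took 0.59 to 0.83%, 0.18 to 0.53%, 0.76 to 1.31% and 0.33 to 0.47% of *Cox4i1* + *Cox4i2*. With tamoxifen the share was lower in every treated library than in any untreated one of the same genotype, by 0.43 points on average (exact permutation test, p = 8.16e-04, adjusted p = 0.00857), the smallest p that the 1225 arrangements allow. The genotypes differed by 0.14 points (exact permutation test, adjusted p = 0.411). Among all 82 genes *Cox4i2* had the lowest p for *Mtm1* KO + TAM against *Mtm1* KO, with a log2 fold change of -1.28 ± 0.34 (SE) and an adjusted p of 0.298 in edgeR, and a log2 fold change of -0.80 without KO replicate 10. *Ndufa4l2*, a paralog of *Ndufa4*, had a share lower by 0.47 points with tamoxifen (exact permutation test, p = 0.0106, adjusted p = 0.0318), which missed 0.05 in 7 of 14 repeats with 1 library left out. Endothelial marker sums had lower means with tamoxifen too, but treated and untreated libraries overlapped in both genotypes. The RPKM of *Pecam1*, *Cdh5* and *Kdr* summed to 37.8 to 60.7 in WT, 29.9 to 39.3 in WT + TAM, 39.0 to 61.0 in *Mtm1* KO and 30.5 to 44.7 in *Mtm1* KO + TAM. Within WT, replicate 3 had the lowest sum and the highest *Cox4i2* share (0.83%). Within *Mtm1* KO, replicate 9 had the highest sum and the lowest *Cox4i2* share (0.76%). The part of endothelial cells was not tested.

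For the fiber forms in complex IV, *Cox6a1* took 6.34 ± 3.75% (SD, n = 3) of *Cox6a1* + *Cox6a2* in WT and 11.99 ± 4.25% (SD, n = 3) in *Mtm1* KO, a difference of 5.65 points, against 0.89 points with tamoxifen. Their mean of 3.27 points did not pass (exact permutation test, adjusted p = 0.389). The share of *Cox8a* in *Cox8a* + *Cox8b* was higher by 7.42 points in untreated and 1.68 in treated *Mtm1* KO, on average by 4.55 (exact permutation test, p = 0.0429, adjusted p = 0.110). Over 16 libraries it was higher by 4.66 points, with an adjusted p of 0.0451 in the exact permutation test. That test counts the library labelled WT replicate 1 as WT, although its *Mtm1* counts go against the label, and its *Cox8a* share (4.90%) was the lowest of all libraries. Shares of *Cox6b2* stayed under 0.14% in the 14 libraries, and neither contrast passed for it or for *Atp5g2*. Among the single genes of these sets, log2 fold changes in *Mtm1* KO against WT were 0.09 for *Cox4i1*, 0.67 for *Cox4i2*, 0.02 for *Cox6a2*, 0.52 for *Cox6b2*, 0.25 for *Cox7a2l* and -0.24 for *Cox8b*. They were -0.09 for *Ndufa4*, 0.40 for *Ndufa4l2*, -0.30 for *Atp5g1*, 0.18 for *Atp5g2* and 0.03 for *Atp5g3*, and none of these 11 passed. Without KO replicate 10 *Ndufa4l2* was at -0.04, *Cox4i2* at 0.20, *Cox6b2* at 0.15, *Cox4i1* at -0.04 and *Cox6a2* at -0.12, and without WT replicate 2 *Cox6b2* was at 1.04. Without WT replicate 3 *Cox7a2l* was at 0.15 and *Atp5g3* at -0.09, without WT replicate 4 *Ndufa4* was at 0.02 and *Atp5g3* at 0.15, and without KO replicate 11 *Atp5g1* was at -0.19.

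Tamoxifen in *Mtm1* KO was the next comparison. No subunit gene was called, and 0 of 15062 genes were called in all (0% of genes, with 7.55% at an unadjusted p under 0.05, 1 of 82 among the subunit genes). The groups did not overlap for 1 of 82, *Cox4i2*, against 7.57% of all genes. DESeq2 and limma called no subunit gene either. Of the 82 genes 62 were higher in *Mtm1* KO + TAM than in *Mtm1* KO, 33 of 37 in complex I, 4 of 4 in complex II, 5 of 8 in complex III, 8 of 16 in complex IV and 12 of 17 in complex V, with a median log2 fold change of 0.06 (-0.01 over all genes). This small shift rested on 1 library, since without KO + TAM replicate 13, which had the highest sum in the main set (39518 CPM), the median was -0.07. The 95% interval lay within 1.5-fold for 72 of 82 genes. *Ndufs1* and *Sdha*, at -0.66 and -0.42 in *Mtm1* KO against WT, were at 0.16 ± 0.19 and 0.19 ± 0.19 (SE) here, and both comparisons use the same *Mtm1* KO libraries. Without KO replicate 10 they were at 0.03 and 0.07, and without KO replicate 9 at 0.37 and 0.40. The highest of each complex were *Ndufa6* (0.22), *Sdha*, *Uqcrfs1* (0.12), *Cox7b* (0.17) and *Atp5j* (0.25), and the lowest *Ndufa4l2* (-0.56), *Sdhb* (0.04), *Uqcrq* (-0.02), *Cox4i2* (-1.28) and *Atp5s* (-0.15). Without KO replicate 10 *Ndufa4l2* was at -0.11, *Atp5j* at 0.10 and *Cox7b* at 0.07, and without KO + TAM replicate 13 *Ndufa6* was at 0.09, *Uqcrfs1* at 0.03, *Sdhb* at -0.11 and *Uqcrq* at -0.20.

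**Figure D4:**
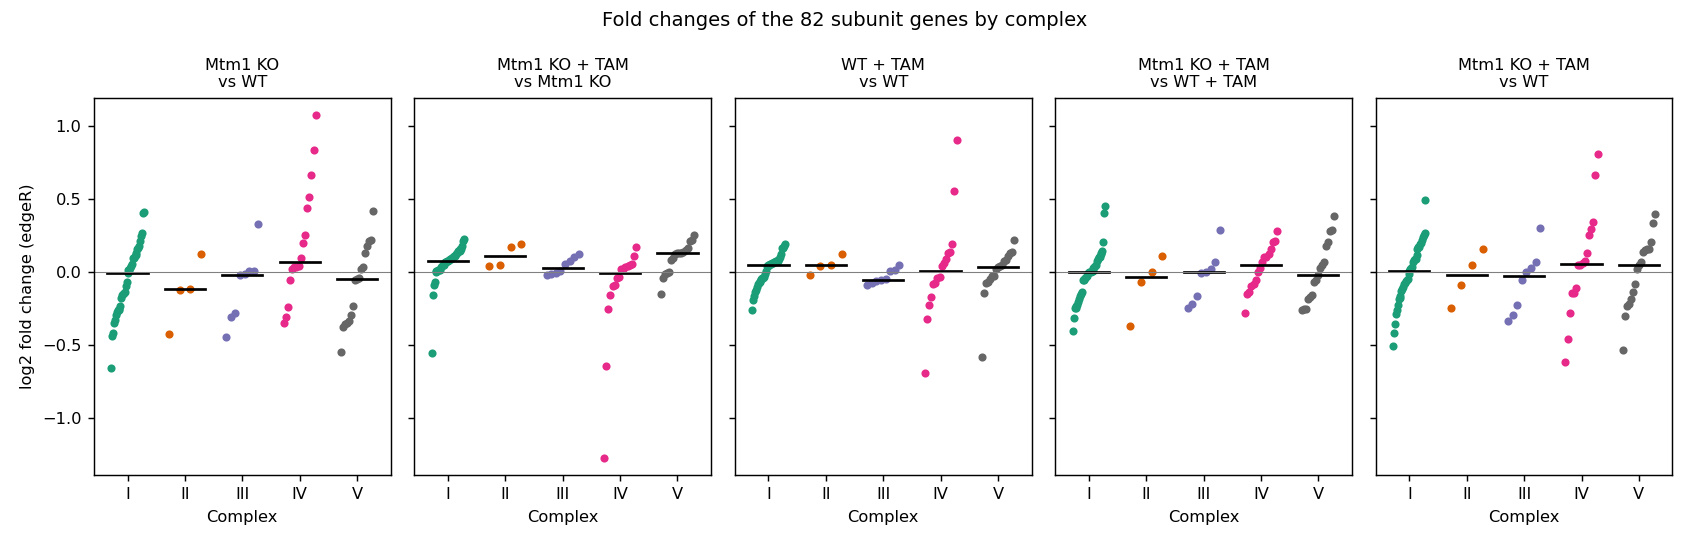
Log2 fold change of each of the 82 genes (points, vertical axis) by complex (horizontal axis) in the 5 comparisons, with the median of each complex as a line. Most points lie between -0.5 and 0.5, and the genes farthest from 0 belong to complex IV (*Cox6a1*, *Cox8a* and *Cox4i2*).

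In WT mice tamoxifen likewise called no subunit gene in edgeR, DESeq2 or limma, against 0.131% of all genes in edgeR, and 46 of 82 were higher (median 0.04, and -0.00 over all genes). At an unadjusted p under 0.05 there was 1 of 82, against 10.7% of all genes. The lowest adjusted p was that of *Atp5s*, a coupling factor, which had 8.58, 9.96 and 9.32 RPKM in WT and 5.49, 7.11, 5.79 and 6.38 in WT + TAM. These groups did not overlap, as was the case for 3 of the 82 genes (*Cox4i2*, *Ndufc1* and *Atp5s*) and 11.6% of all genes, and its log2 fold change was -0.59 ± 0.14 (SE, adjusted p = 0.139 in edgeR). Tested as an interaction term in edgeR, the tamoxifen effect differed between the genotypes for no subunit gene and for 0% of all genes, and DESeq2 and limma called no subunit gene. The median of that difference was 0.07, and the share of genes at an unadjusted p under 0.05 was 1 of 82, against 4.27% of all genes.

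Between the treated groups, *Mtm1* KO + TAM against WT + TAM, 38 of 82 genes were higher and the median was -0.00. None was called in edgeR or DESeq2, where edgeR called 6.72% and DESeq2 13.7% of all genes. At an unadjusted p under 0.05 there were 5 of 82 against 32.3% of all genes, and 5 of 82, 2 higher and 3 lower, did not overlap against 22.5%. Without KO + TAM replicate 13 the median was -0.15 and 21 of 82 were higher. *Ndufb3*, an accessory subunit, had 222, 144, 209 and 201 RPKM in WT + TAM and 351, 225, 226 and 259 in *Mtm1* KO + TAM, without overlap (log2 fold change 0.45 ± 0.17, SE, adjusted p = 0.0993 in edgeR). *Ndufs4*, whose loss causes a mitochondrial encephalopathy in mice, was at 0.40 ± 0.13 (SE, adjusted p = 0.0620 in edgeR). *Atp5l*, subunit g of ATP synthase, was at 0.38 ± 0.14 (SE, adjusted p = 0.0875 in edgeR), and *Ndufs1* at -0.41 ± 0.13 (SE, adjusted p = 0.0589 in edgeR). Under library size scaling alone, where the median moved to 0.27, and in limma, *Ndufs4*, *Ndufb3* and *Atp5l* were called. That scaling called 12.9% of all genes, and limma 11.6% or 11.1%. Between *Mtm1* KO + TAM and WT none was called in edgeR, DESeq2 or limma, against 7.70% of all genes in edgeR and 15.9% in DESeq2. At an unadjusted p under 0.05 there were 9 of 82 against 34.0%, and 5 of 82 did not overlap against 31.3%. The median was 0.02, and -0.11 without KO + TAM replicate 13. *Ndufs1* (-0.51 ± 0.16, SE) and *Atp5s* (-0.54 ± 0.16, SE) had adjusted p of 0.0458 and 0.0358 in edgeR. *Cox6a1* (0.81 ± 0.31, SE) was called there without WT replicate 2, with an adjusted p of 0.00372 in edgeR, where 4.77% of all genes were called.

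Genes around the chain were counted in the same way. Of 42 assembly factors tested, 2 fell in *Mtm1* KO against WT and none rose, a share close to the 3.60% of all genes that were called. *Ndufaf5*, a complex I assembly factor, fell by 0.95 ± 0.13 (SE, adjusted p = 0.00335 in edgeR) and *Cox11*, which delivers copper to complex IV, by 0.69 ± 0.12 (SE, adjusted p = 0.00710 in edgeR). The median of the 42 was -0.17. In *Mtm1* KO + TAM against WT 5 of 42 fell, against 7.70% of all genes called, the others being *Taco1*, *Atpaf1* and *Ndufaf6*. In *Mtm1* KO + TAM against WT + TAM 1 of 42, *Ndufaf5*, fell, against 6.72% of all genes. Of the 5 subunits and carriers outside the name patterns (*Ndufab1*, *Cyc1*, *Cycs*, *Usmg5* and *Atpif1*) none was called in any comparison. Of 15 genes of pyruvate oxidation and the citric acid cycle 14 were lower in *Mtm1* KO (median -0.38) and none was called. Lowest was *Idh3a*, of NAD-dependent isocitrate dehydrogenase, at -0.72 ± 0.16 (SE, adjusted p = 0.0240 in edgeR), and it fell in *Mtm1* KO + TAM against WT by 0.72 ± 0.14 (SE, adjusted p = 0.00654 in edgeR). Among 9 regulators only *Tfam*, the mitochondrial transcription factor, was called, and only in WT + TAM against WT, where it rose by 0.99 ± 0.10 (SE, adjusted p = 0.00295 in edgeR). Its counts were also higher with tamoxifen in the knockout, at 1103 to 1459 in *Mtm1* KO and 1781 to 2286 in *Mtm1* KO + TAM. No gene at all was called in that comparison, and *Tfam* was not called for a tamoxifen effect that differs between genotypes.

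The 13 protein genes of the mitochondrial genome, partners of the 82 in complexes I, III, IV and V, had a median of -0.30 in *Mtm1* KO against WT with none called. In *Mtm1* KO + TAM against WT the median was -0.67 and 3 of 13 fell, against 7.70% of all genes called. These were *mt-Atp8*, *mt-Co3* and *mt-Nd5*, which fell by 1.20 ± 0.21, 1.06 ± 0.22 and 0.97 ± 0.20 (SE), with adjusted p of 0.00397, 0.00846 and 0.00903 in edgeR. The first 2 had few counts for this genome. In WT replicates 2 to 4 *mt-Atp8* had 170 to 255 and *mt-Co3* 1115 to 2302, where *mt-Co1* had 407626 to 703453. In *Mtm1* KO + TAM they had 86 to 139 and 882 to 1177. That comparison differs in genotype and in treatment. With tamoxifen the median of the 13 was -0.27 in WT (1 of 13 higher) and -0.14 in *Mtm1* KO (2 of 13 higher), with none called. At an unadjusted p under 0.05 there were 6 of 13 in each, against 10.7% and 7.55% of all genes. Between the treated groups the median was -0.33, with none called. The counts of the 13 genes were 1.73 to 1.99 times those of the 82 nuclear genes in WT, 1.26 to 1.85 times in WT + TAM, 1.12 to 1.62 times in *Mtm1* KO and 1.00 to 1.68 times in *Mtm1* KO + TAM. In this ratio *Mtm1* KO lay below WT without overlap, while the treated groups overlapped. In the library labelled WT replicate 1 and in KO replicate 12 the ratio was 0.574 and 0.599. Muscle fiber markers summed to 86020 to 101744 RPKM in WT and 61132 to 69908 in *Mtm1* KO, and none of these 7 was called there. The 8 slow and oxidative fiber markers had a median log2 fold change of 1.34, 7 were higher and none was called, and their RPKM summed to 18.6 to 504 in WT and 310 to 943 in *Mtm1* KO. In *Mtm1* KO + TAM against WT + TAM 3 of the 7 muscle fiber markers fell (*Pvalb*, *Ckm* and *Myh4*, by 1.00, 0.87 and 1.24 on the log2 scale). Another 2 of the 7, *Myh1* and *Mb*, were higher there and in *Mtm1* KO against WT, and neither was called. Of the 8 slow markers 2 rose (*Tnni1* and *Atp2a2*, by 2.81 and 1.05), and against WT *Pvalb* and *Myh4* fell by 1.31 and 1.37. The part of fiber type in the subunit values was not tested.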

How the data were processed

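Quadriceps RNA was sequenced after TruSeq preparation from 1 µg of total RNA. Per the paper, reads were aligned to GRCm38 with STAR and counted with HTSeq, and the submitters' processing notes list STAR 2.5.0c, Cufflinks 2.2.1 and bcl2fastq 2.17. The deposited values are raw counts per gene and RPKM that the authors scaled by total count and gene length (largest relative deviation 5.70e-05 over 2445 genes). No source used here gives the strand setting.

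Counts were tested with edgeR 4.0.16 in R 4.3.3 (TMM, filterByExpr, quasi-likelihood test, Benjamini-Hochberg over all genes tested, threshold 0.01), in 5 pairwise comparisons and 1 interaction, over the study's 14 libraries. The SE is the log2 fold change over the root of the F statistic. Alternatives used DESeq2 1.42.0, limma 3.58.1 on log2 RPKM plus 0.1 or 1, other scalings and filters, the 16 libraries and each library left out. The fit was tested on simulated data. Positions and shared 50-base stretches are from GENCODE vM21 (GRCm38), which holds all 82 genes.

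Isoform shares were compared by exact permutation of libraries, a test added after the data were seen. Named were called members, isoform sets, complex II, members under the minimum, and the highest and lowest log2 fold changes per complex in *Mtm1* KO against WT and in *Mtm1* KO + TAM against *Mtm1* KO. Other genes, such as *Ndufc1*, *Ndufs4* and *Atp5l*, were chosen after their values were seen. Members and lists were chosen with earlier results of these data known.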

Additional observations from a re-analysis of the deposited data

Results flagged for a closer look

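Groups of 4 libraries, drawn from all 16, were searched for a library far from the other 3 by Dixon's criterion, over 45 quantities and 180 groups, and chance flags about 1 in 20 groups. Of 23 such values, 12 belonged to the library labelled WT replicate 1, all of them high. Its summed CPM was 21743 for complex I (8615 to 10606 in the other WT libraries) and 14063 for complex IV (4595 to 6017). In RPKM after TMM scaling it had *Cox4i1* at 1997, *Cox4i2* at 12.5, *Cox6a2* at 2550, *Cox6b1* at 2529, *Cox8b* at 3487, *Atp5g1* at 290.3, *Ndufb3* at 554, *Uqcrh* at 836, *Ndufa6* at 818 and *Uqcrq* at 669.

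In *Mtm1* KO + TAM, replicate 13 was high for *Cox4i1* (950.0 RPKM), *Cox6a2* (1321), *Ndufa4* (1295), *Ndufa4l2* (18.5) and *Uqcrq* (284). In WT + TAM, replicate 6 was low for *Cox6a2* (758 RPKM), *Atp5g3* (254) and *Sdhb* (149). In *Mtm1* KO, replicate 11 was low for *Cox8a* (107 RPKM) and *Atp5s* (6.501), and replicate 9 was high in the share of *Atp5g1* (17.8%, against 15.3 to 15.5% in the others).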

How the results depend on the processing

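No paired analysis was possible because the groups share no replicate number and no source used here says which mice were littermates. No called count rose above 3 of 82. DESeq2 called 3 genes in *Mtm1* KO against WT (*Ndufa6*, *Ndufs1* and *Ndufc1*, all lower), against 11.4% of all genes. A threshold of 0.05 called 2 there and 2 in *Mtm1* KO + TAM against WT, against 12.8% and 20% of all genes. Library size scaling moved the median log2 fold change of the 82 genes to 0.31 in *Mtm1* KO against WT, to 0.27 between the treated genotypes and to 0.29 in *Mtm1* KO + TAM against WT (68, 79 and 71 of 82 higher). It called 0, 3 and 1 of the 82, against 7.89%, 12.9% and 12.5% of all genes. limma on RPKM plus 0.1 gave medians of 0.31, 0.27 and 0.28 and plus 1 gave 0.31, 0.27 and 0.28. Both called 3 in the second, against 11.6% and 11.1% of all genes. With 16 libraries, grouped as labelled, the medians were -0.32 in *Mtm1* KO against WT, -0.41 in WT + TAM against WT, -0.37 in *Mtm1* KO + TAM against WT and 0.33 for the interaction, with none called. With the length offset, added later, the median of *Mtm1* KO against WT was -0.16. *Ndufa6* (1 gene) was called with it in *Mtm1* KO + TAM against WT + TAM, against 8.77% of all genes. Leaving out 1 library called 0 to 1 genes in *Mtm1* KO + TAM against WT, against 3.46% to 8.45% of all genes. The cause of these changes was not tested.

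Of the shares, tamoxifen differences with 1 library left out ranged from 1.94 to 2.76 points for *Cox7a2*, -0.61 to -0.24 for *Ndufa4l2*, -0.23 to 2.06 for *Cox6a1*, -0.0182 to 0.00258 for *Cox6b2*, -0.36 to 0.38 for *Atp5g2* and -0.85 to 0.00798 for *Atp5g3*, and the genotype difference for *Cox6b2* from -0.0175 to 0.00322. Genotype differences of *Cox7a2* (3.78 to 4.59 points), *Atp5g1* (-4.48 to -3.84) and *Atp5g3* (2.85 to 3.70) and the tamoxifen difference of *Cox4i2* (-0.48 to -0.35) kept an adjusted p under 0.05 in all 14 repeats and over 16 libraries. The 16 libraries were grouped as labelled, which counts WT replicate 1 as WT against its *Mtm1* counts. With 3 libraries a group, the 95% interval lay within 1.5-fold for 51 of 82 genes in *Mtm1* KO against WT.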
